A study of Mus musculus with 16 samples.

Results

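The response of mouse macrophages that had already met interferon to 3 h of interferon-gamma was read across all genes. It was taken as the pretreated arrays at 3 h (n = 2) against the pretreated arrays at 0 h of the same array set (n = 2), which are 4 of the 16 arrays of the study. The macrophages were derived from bone marrow with L-cell conditioned medium, and all groups, controls included, came from mice with an HA-tagged knock-in of histone H3.3. Naive cells were sampled at 0, 3 and 6 h and pretreated cells at the same times, and interferon-gamma is the agent that the treatment protocol names. The name pretreated comes from the group label and a tag in the titles for earlier interferon, and how much was given, for how long and how much earlier is not given in the sources used here. Array set 2, read from the numbering in the titles, held 2 arrays each of naive and pretreated cells at 0 h and at 3 h. Set 1 held the 0 h and 6 h arrays. No unstimulated cells were sampled at 3 h, so an effect of interferon and one of culture time or handling cannot be told apart. Nothing in the labels ties replicates to separate cultures or animals, and the p-values thus measure only how far these samples vary, which could be technical variation. In bulk RNA fewer cells of a type and less RNA per cell cannot be told apart.

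Interferon-gamma binds a receptor of paired chains, Ifngr1 and Ifngr2, which the kinases Jak1 and Jak2 serve. STAT proteins activated there bind a promoter element called GAS, and factors of the IRF family, themselves induced, bind a second element, the ISRE, and widen the response. SOCS proteins, made in the same wave, inhibit the receptor kinases. In macrophages the response brings antimicrobial GTPases, chemokines for T cells, antigen presentation and nitric oxide synthesis, and earlier contact with interferon is known to alter how some of these genes answer a later dose.

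The values are deposited log2 intensities of 19938 genes, and a difference of 1 is a 2-fold change. The value after ± is the SE from 1 limma fit to all 16 arrays, and for a given gene it is equal in all comparisons of 2 with 2 arrays. Adjusted p is limma's moderated p after Benjamini-Hochberg adjustment over all 19938 genes, and a gene is called rising or falling at an adjusted p under 0.05. Replicate arrays of set 2 correlated across genes at 0.9915 to 0.9938, which describes likeness only, since genes are not independent replicates. The 7 macrophage markers read 10.31 to 13.85 on the 4 arrays. The 31 measured markers of T, B, NK, mast and dendritic cells, neutrophils and fibroblasts read 3.89 to 8.82, none of them passed the threshold, and their summed level was 11.16 to 11.34 at 0 h and 11.31 to 11.52 at 3 h. The 5 dendritic cell markers had a summed level of 8.68 to 8.78 at 0 h and 9.21 to 9.22 at 3 h, without overlap, and all 5 changes lay above 0. Clec9a among them read 6.41 and 6.80 at 0 h and 7.98 and 7.71 at 3 h (1.24 ± 0.39, adjusted p = 0.142), and the part of such cells in the results was not tested. A level under 6.5 is treated as not shown to be above background, so the size of a change that starts or ends there is uncertain and its fitted log2 value is given without a fold.

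In pretreated cells 370 genes rose and 199 fell after 3 h. These are 1.86% and 0.998%, together 2.85%, of the 19938 genes, whose median change was -0.001. By fitted values the rises were larger than the falls. Of the rises 182 were at least 2-fold and 47 at least 4-fold, against 68 and 4 falls, and median sizes were 0.99 and 0.84. The mean 0 h level lay under 6.5 for 35 of the 370 rises and 4 of the 199 falls. Sizes of changes that start or end there are uncertain, and so is their place in these counts. The largest rise was that of Ptgs2, the inducible cyclooxygenase of prostaglandin synthesis, and the largest fall that of S1pr1, a receptor for sphingosine 1-phosphate. Among the 15 largest rises were the feedback inhibitors Socs1 and Socs3, the GTPases Gm4841, Gbp11 and Gbp5, the factor Batf2 and the chemokine Cxcl11. The 15 largest rises and falls were taken only among genes whose 0 h and 3 h arrays did not overlap, as in 35.4% of all genes. Where arrays are said below to lie apart, this is therefore a description and no support. Of the 569 genes, 177 were called whichever of the 4 arrays was left out, 147 of them rises and 30 falls. Counts depended on single arrays: 219 genes were called without pretreated 0 h replicate 4, 242 without 3 h replicate 2, 321 without 3 h replicate 1 and 429 without 0 h replicate 3. Only 41 falls were called without 0 h replicate 4 and 37 without 3 h replicate 2.

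**Figure D1:**
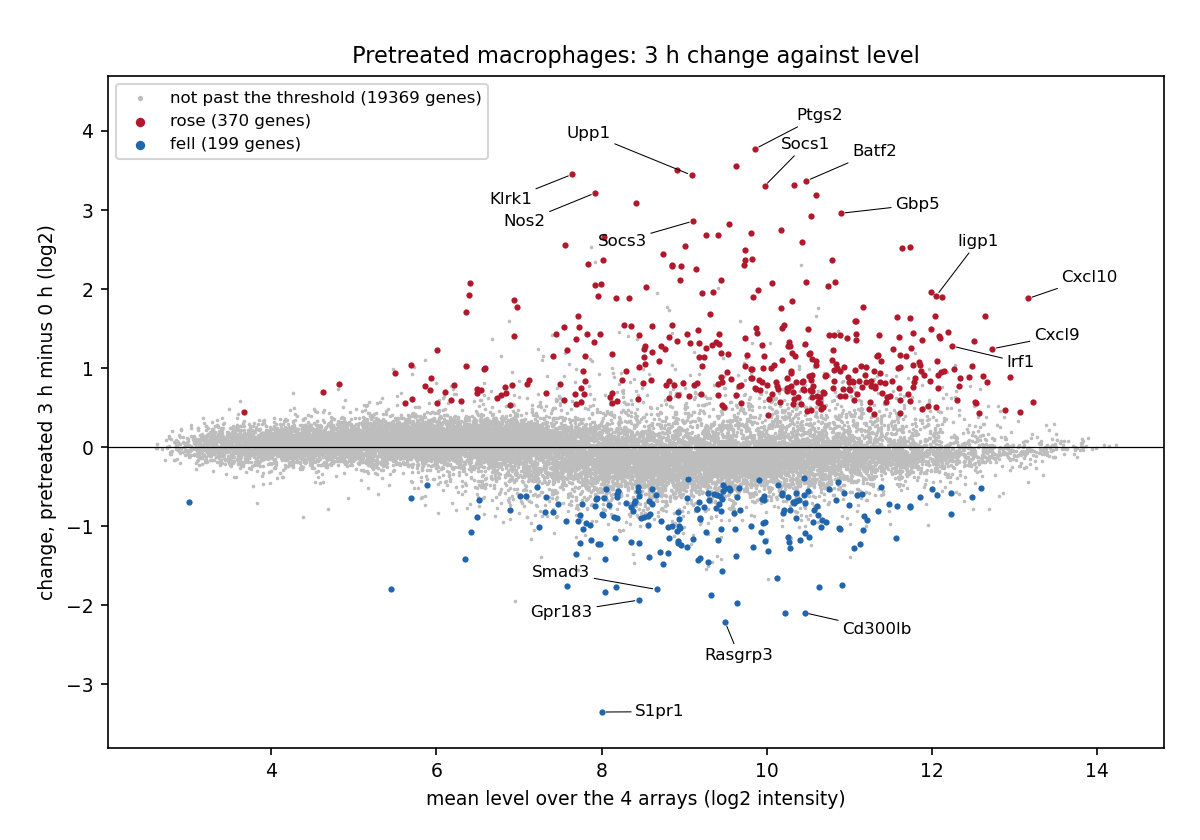
Change from 0 h to 3 h in pretreated cells (vertical axis, log2) against the mean level over the 4 arrays (horizontal axis, log2 intensity), 1 point per gene. Red points are the 370 genes that rose, blue points the 199 that fell and grey points the genes that did not pass the threshold. Rises reach 3.77 (Ptgs2) and S1pr1, at -3.35, stands below the other falls.

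The promoters of genes that rose held the letters of both interferon elements more often than promoters at large. Windows of 300 bases, 250 before to 50 after the start of a gene, came from RefSeq (GRCm38.p6) and were found for 15614 of the 19938 genes. The letters searched were TTCNNNGAA for GAS, which reads the same on both strands, and GAAANNGAAA or its other strand TTTCNNTTTC for the ISRE core, and no letters of the motifs were allowed to differ. GAS letters stood in 16.6% of 290 risen genes with a window, in 8.07% of 161 fallen genes and in 8.99% of all genes. ISRE letters stood in 16.2%, 3.11% and 3.89%. Among the 31 genes with a window that rose at least 4-fold, 14 (45.2%) held either, against 28.3% of all risen genes and 12.2% of all genes with a window. The 4-fold limit was applied to fitted values, also where a rise starts under 6.5 and its size is uncertain. A match describes the letters and is no sign of binding. The 250 bases before the start are printed for 6 genes whose rises are described further on, with matches in capitals. All 6 hold a match, where 28.3% of risen genes with a window do, so they are examples and not typical of the rises. Irf1 and Irf8 each have a further RefSeq start whose window holds no match and is not printed.
Irf1 promoter, chr11:53769764-53770013, plus strand, GAS at -90: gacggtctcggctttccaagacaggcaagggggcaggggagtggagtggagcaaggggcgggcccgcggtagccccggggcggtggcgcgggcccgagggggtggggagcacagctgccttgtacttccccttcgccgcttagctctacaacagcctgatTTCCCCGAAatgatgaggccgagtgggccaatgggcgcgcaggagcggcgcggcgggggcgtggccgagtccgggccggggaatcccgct
Irf8 promoter, chr8:120736108-120736357, plus strand, GAS at -171 and -153: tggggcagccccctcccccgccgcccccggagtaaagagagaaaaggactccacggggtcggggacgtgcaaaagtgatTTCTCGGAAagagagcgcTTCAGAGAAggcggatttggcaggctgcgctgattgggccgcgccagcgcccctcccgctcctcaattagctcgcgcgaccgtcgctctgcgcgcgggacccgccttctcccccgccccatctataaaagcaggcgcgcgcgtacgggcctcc
Socs1 promoter, chr16:10785537-10785786, minus strand, ISRE at -83 and, overlapping it, at -77: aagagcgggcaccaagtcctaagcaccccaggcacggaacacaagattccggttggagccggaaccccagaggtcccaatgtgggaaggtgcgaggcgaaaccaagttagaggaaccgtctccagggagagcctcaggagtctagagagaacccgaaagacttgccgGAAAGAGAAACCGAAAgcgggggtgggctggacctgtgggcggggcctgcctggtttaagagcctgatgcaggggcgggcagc
Socs3 promoter, chr11:117969367-117969616, minus strand, GAS at -154: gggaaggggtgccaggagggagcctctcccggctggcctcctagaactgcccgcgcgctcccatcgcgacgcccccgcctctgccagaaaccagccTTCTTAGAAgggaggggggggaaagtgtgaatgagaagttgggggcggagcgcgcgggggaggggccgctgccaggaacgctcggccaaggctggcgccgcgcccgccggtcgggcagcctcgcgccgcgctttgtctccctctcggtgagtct
Cxcl10 promoter, chr5:92348890-92349139, minus strand, ISRE at -213: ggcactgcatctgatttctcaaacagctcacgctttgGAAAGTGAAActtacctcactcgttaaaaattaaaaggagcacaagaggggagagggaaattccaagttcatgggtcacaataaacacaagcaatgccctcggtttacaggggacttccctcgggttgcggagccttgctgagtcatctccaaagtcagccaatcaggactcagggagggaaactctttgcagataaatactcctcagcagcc
Gbp5 promoter, chr3:142496684-142496933, plus strand, GAS at -245 and -52, ISRE at -165: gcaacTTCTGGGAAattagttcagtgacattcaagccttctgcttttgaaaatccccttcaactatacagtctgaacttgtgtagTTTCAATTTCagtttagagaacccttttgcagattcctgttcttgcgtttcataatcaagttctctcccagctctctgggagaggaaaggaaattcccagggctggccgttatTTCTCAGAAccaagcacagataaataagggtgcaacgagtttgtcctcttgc

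At the top of the pathway the changes were small and went both ways. Of 13 measured receptor, JAK and STAT genes 3 rose and 1 fell, with a median of -0.01, where 1.86% of all genes rose and 0.998% fell. Stat3, a factor of several cytokine receptors, read 11.38 on both 0 h arrays and 12.27 and 12.14 at 3 h (log2 change 0.83 ± 0.12, adjusted p = 0.00157). Stat5b, which carries growth factor signals, went from 10.33 and 10.34 to 11.02 and 11.05 (0.70 ± 0.10, adjusted p = 0.00272). Its close relative Stat5a rose by 0.55 ± 0.12 (adjusted p = 0.0307). Ifngr1, the ligand-binding chain of the receptor, fell from 12.09 and 12.13 to 11.40 and 11.32 (-0.75 ± 0.14, adjusted p = 0.0125), and in naive cells its change was -0.93. The 0 h and 3 h arrays did not overlap for any of these 4 genes, a condition that 35.4% of all genes met. Ifngr2 (-0.57 ± 0.14, adjusted p = 0.0605) and Jak2 (0.68 ± 0.18, adjusted p = 0.0681) did not pass. Ifngr1 and Stat5a lost the call whichever array was left out, to adjusted p as high as 0.104 and 0.273. With the 4 arrays fitted alone, Stat5b, Ifngr1 and Stat5a lost it (adjusted p = 0.0811, 0.0597 and 0.235), and in array set 2 alone Stat5a did too (0.103). With any 1 of the 4 arrays left out the list had 2 rises and no fall.

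Of 11 IRF and BATF factors 3 rose and none fell (median 0.33), where 1.86% of all genes rose. Batf2, a partner of IRF1 in activated macrophages, went from 8.47 and 9.12 at 0 h to 12.09 and 12.24 at 3 h (3.37 ± 0.18, adjusted p = 1.48e-06). Irf8, which also sets myeloid identity, went from 11.35 and 11.41 to 12.82 and 12.75 (1.41 ± 0.15, adjusted p = 0.000266). Irf1, an early target of the STATs, went from 11.52 and 11.70 to 12.93 and 12.85 (1.28 ± 0.15, adjusted p = 0.00044). All 3 were higher on each 3 h array than on either 0 h array, and none of the 3 lost the call when an array was left out. In naive cells the mean Irf1 level went from 10.11 to 13.04, a change of 2.93. Irf7, which drives type I interferon genes, read 11.97 and 11.99 at 0 h and 12.38 and 12.58 at 3 h and did not pass (adjusted p = 0.27).

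**Figure D2:**
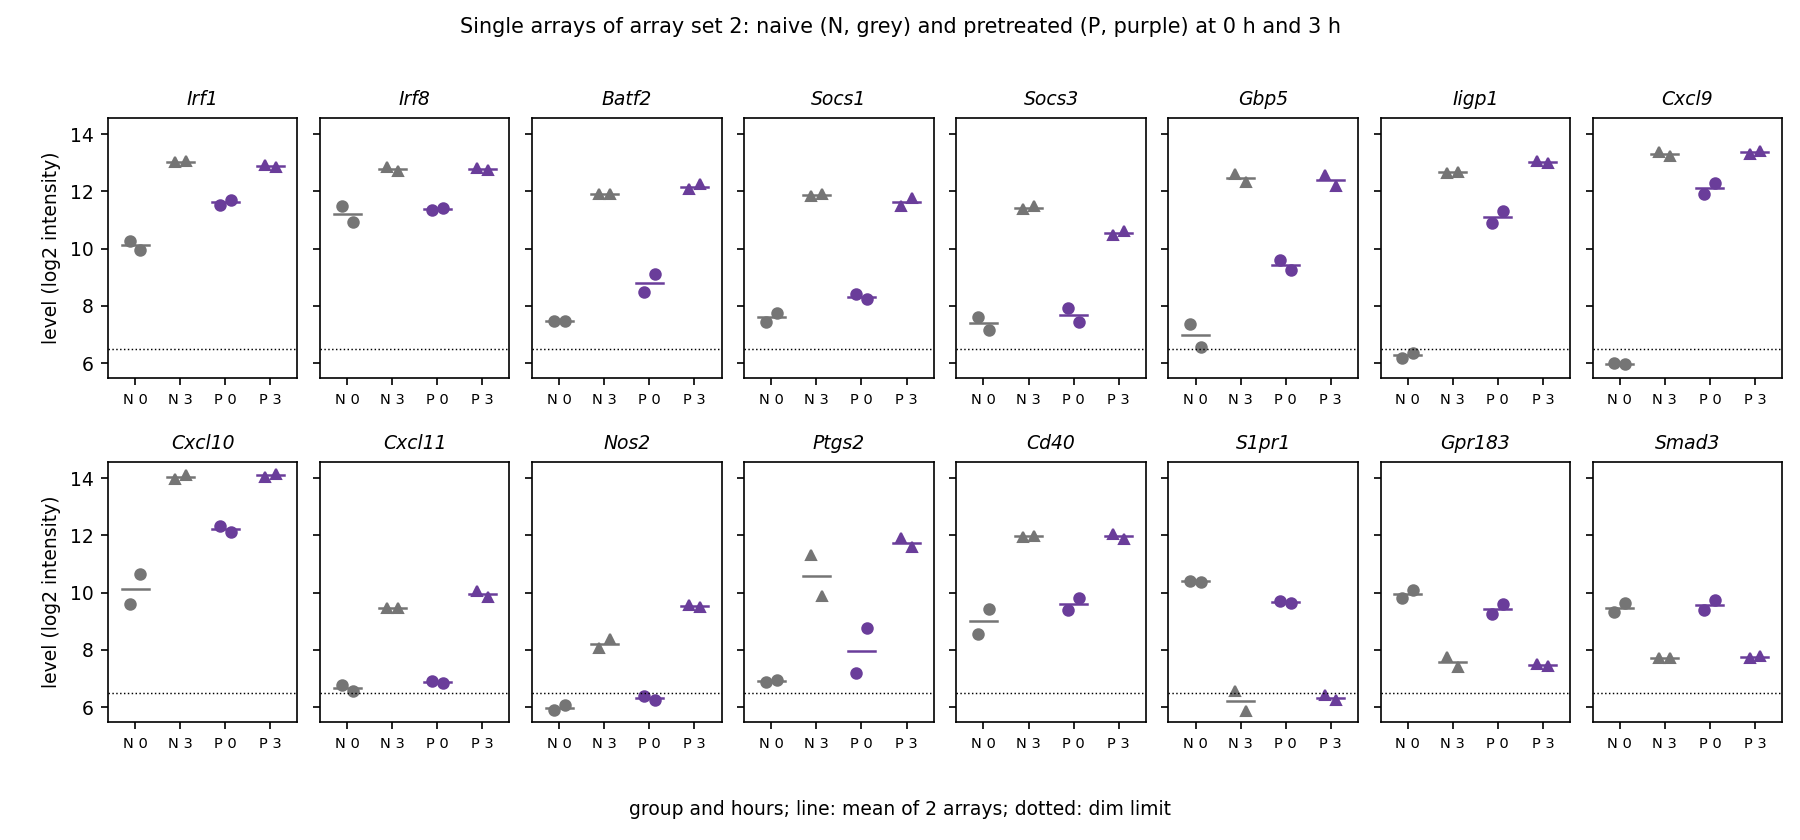
Level on each array of set 2 (log2 intensity) for 16 genes, with naive cells in grey, pretreated cells in purple, circles for 0 h, triangles for 3 h and lines for the mean of 2 arrays. The dotted line is the dim limit of 6.5. In pretreated cells Cxcl9 starts at 11.92 and 12.30 and ends at 13.30 and 13.41, and Nos2 starts at 6.38 and 6.25.

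Of 17 SOCS proteins and other inhibitors of JAK-STAT signalling 4 rose and none fell, with 9 changes above 0 and 8 below (median 0.18). The share of rises among all genes was 1.86%. Socs1, which blocks JAK kinases and whose promoter holds overlapping ISRE letters, went from 8.42 and 8.22 to 11.50 and 11.75 (3.302 ± 0.15, adjusted p = 5.66e-07). Socs3, an inhibitor of gp130 receptors, went from 7.92 and 7.44 to 10.48 and 10.60 (2.86 ± 0.21, adjusted p = 2.07e-05). Cish, an inhibitor induced by STAT5, went from 7.04 and 6.76 to 8.90 and 9.001 (2.05 ± 0.17, adjusted p = 5.29e-05). The 3 h arrays of these 3 genes all lay at least 1 log2 unit above the 0 h arrays. Their 0 h levels in naive cells of the same set were 7.601, 7.39 and 6.85, and their naive changes 4.25, 4.04 and 2.82. Ptpn2, a phosphatase of JAKs and STATs, was the remaining rise (0.77 ± 0.18, adjusted p = 0.043) and lost the call without any 1 of the 4 arrays (adjusted p up to 0.187), with those 4 arrays alone (0.0952), with the mean of its features (0.062) and with all features tested (0.0769). Usp18, which restrains the type I receptor, did not pass (0.98 ± 0.34, adjusted p = 0.189).

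The interferon-inducible GTPases rose as a whole, all 12 that were measured, by a median of 2.01, against 1.86% of all genes. These proteins attack the vacuoles of intracellular pathogens. The list has 23 genes, and 9 of the others lay on features that the annotation gives several symbols and 2 were not matched. Near-identical copies exist among them, and array features may read more than 1 copy, so single values are uncertain. Gm4841, named Ifgga3 in current tables, went from 6.996 and 7.33 to 10.78 and 10.56 (3.51 ± 0.20, adjusted p = 1.74e-06). Gbp11 went from 8.47 and 8.87 to 12.21 and 11.78 (3.32 ± 0.35, adjusted p = 0.000242). Gbp5, a GTPase that promotes inflammasome assembly, went from 9.59 and 9.25 to 12.57 and 12.19 (2.96 ± 0.35, adjusted p = 0.000523). These 3 showed gaps of more than 2 log2 units between any 0 h and any 3 h array. Gbp4 went from 10.40 and 10.53 to 13.03 and 12.97 (2.53 ± 0.42, adjusted p = 0.00512). Iigp1, an effector of the immunity-related GTPase family, went from 10.88 and 11.31 to 13.04 and 12.98 (1.92 ± 0.27, adjusted p = 0.00175). Gm4951, or Ifgga2, rose by 1.49 ± 0.21 (adjusted p = 0.00157) and Gbp3 by 1.78 ± 0.26 (adjusted p = 0.00211). With any 1 array left out 9 of the 12 rises were called. In naive cells of the same set all 12 rose as well, by a median of 4.03, against 3.37% of all genes, and in pretreated cells at 6 h all 12 rose by a median of 1.85, against 2.89%.

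Antiviral interferon-stimulated genes formed the broadest group of modest rises. Of 41 measured, 19 rose and none fell, with a median of 0.78 and 40 changes above 0. Among all 19938 genes 1.86% rose, and 9932 changes lay above 0. The share of rises among all genes was 3.37% in naive cells and 2.89% in pretreated cells at 6 h. Slfn5, a Schlafen protein, went from 11.47 and 10.94 to 12.90 and 12.83 (1.66 ± 0.15, adjusted p = 0.000117). Daxx, which is also a chaperone of H3.3, went from 10.17 and 10.04 to 11.51 and 11.54 (1.42 ± 0.17, adjusted p = 0.000555). Ifit2, a protein that binds viral RNA, went from 12.17 and 11.51 to 13.26 and 13.10 (1.34 ± 0.20, adjusted p = 0.00272). For each the 3 h arrays stood above both 0 h arrays, and 35.4% of all genes had no overlap in 1 direction or the other. Mx1, a GTPase against influenza virus, read 9.60 and 9.95 at 0 h and 11.19 and 11.67 at 3 h and did not pass (1.66 ± 0.49, adjusted p = 0.112). The count fell to 8 without pretreated 0 h replicate 4, to 9 without 3 h replicate 1 and to 11 without 3 h replicate 2. In naive cells 33 of the 41 rose (median 1.43), and in pretreated cells at 6 h 14 did (median 0.41), 3 to 6 with 1 array left out.

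The measured genes of class I presentation had few calls and those of class II presentation none, where 1.86% of all genes rose. In naive cells 3.37% of all genes rose, and in pretreated cells at 6 h 2.89% did. The class I list has 22 genes. H2-K1, H2-D1, H2-T23 and H2-Q6 lay on features that the annotation gives several symbols, and H2-Q7 was not matched. The counts thus do not cover these class I molecules. Of 17 class I genes 2 rose (median 0.13), against 11 in naive cells (median 0.70) and 8 in pretreated cells at 6 h (median 0.40, and 5 without 6 h replicate 1). The pretreated count at 3 h was 1 whichever array was left out. Nlrc5, the transactivator of class I genes, went from 11.33 and 11.39 to 12.28 and 12.19 (0.88 ± 0.14, adjusted p = 0.00417). Tap1, which pumps peptides into the endoplasmic reticulum, rose by 0.50 ± 0.12 (adjusted p = 0.043) from 11.77 and 11.83. Its call was lost without any 1 of the 4 arrays, in array set 2 alone (adjusted p = 0.133) and with the 4 arrays alone (0.279). It was also lost with all features tested (0.0651) and after quantile normalization of the deposited values (0.0826). None of 14 class II genes was called by limma (2 at an unadjusted p under 0.05), with 9 changes above 0 and a median of 0.10. Ciita, the transactivator of class II genes, read 8.22 and 7.68 at 0 h and 10.34 and 9.02 at 3 h (1.73 ± 0.54, adjusted p = 0.132). Both 3 h values lay above both 0 h values, and replicates differed by more than 1 log2 unit at 3 h. At 6 h, in the other set, Ciita rose by 2.79 ± 0.54 (adjusted p = 0.0081).

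Among 20 chemokines 3 rose and 1 fell (median 0.09), where 1.86% of all genes rose and 0.998% fell. The 3 rises were the ligands of CXCR3, the receptor on activated T cells. Cxcl11 went from 6.90 and 6.85 to 10.07 and 9.85 (3.08 ± 0.33, adjusted p = 0.000246). Cxcl10, with ISRE letters in its promoter, went from 12.33 and 12.13 to 14.06 and 14.16 (1.88 ± 0.28, adjusted p = 0.00233). Cxcl9 went from 11.92 and 12.30 to 13.30 and 13.41 (1.25 ± 0.17, adjusted p = 0.00138). No array of one group reached the other in these genes, as in 35.4% of all genes. In naive cells Cxcl11 changed by 2.78 and Cxcl10 by 3.91. The fitted naive change of Cxcl9 was 7.32, of uncertain size because its naive 0 h level of 5.98 lies under the dim limit. The highest gene level on the 4 arrays was 14.29, and the part of signal compression in the sizes of changes that end near it was not tested. Cxcl2, a neutrophil chemokine, fell from 8.07 and 8.86 to 7.22 and 6.19 (-1.76 ± 0.43, adjusted p = 0.0482). That call was lost without 0 h replicate 3, 0 h replicate 4 or 3 h replicate 2 (adjusted p up to 0.43), in array set 2 alone (0.142), with all features tested (0.0933) and with trend and robust variances (0.0837). Ccl12, a monocyte chemokine, read 6.34 and 9.07 at 0 h and 9.06 and 10.24 at 3 h, so its groups overlapped (adjusted p = 0.253).

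Of 24 cytokines 4 rose and none fell (median 0.09), 2 without 0 h replicate 4 or either 3 h array. The share of rises among all genes was 1.86%. Tnfsf10, the death ligand TRAIL, went from 8.85 and 8.75 to 11.48 and 11.62 (2.75 ± 0.21, adjusted p = 2.69e-05). Il1rn, the antagonist of the interleukin-1 receptor, went from 8.83 and 8.95 to 10.63 and 10.96 (1.90 ± 0.20, adjusted p = 0.000246), and its naive change was also 1.90. Il15, a growth factor of NK cells, rose by 1.22 ± 0.25 (adjusted p = 0.0184) but lost the call without 0 h replicate 4, 3 h replicate 1 or 3 h replicate 2 (adjusted p up to 0.181). Tnf read 10.38 and 11.40 at 0 h and 12.11 and 11.47 at 3 h (0.90 ± 0.65, adjusted p = 0.614), and its 0 h arrays were further apart than the means of the groups.

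Of 16 genes of NF-kB subunits, feedback and targets 4 rose and none fell (median 0.28), 2 without 0 h replicate 4 or either 3 h array. Over all genes 1.86% rose and 0.998% fell. Ptgs2 went from 7.19 and 8.76 to 11.90 and 11.59 (3.77 ± 0.50, adjusted p = 0.00117), and its 0 h arrays differed by more than 1 log2 unit. Bcl3, an atypical IkB protein, went from 9.94 and 9.68 to 11.26 and 10.98 (1.30 ± 0.19, adjusted p = 0.00211). Of 18 genes of Toll-like receptor signalling 2 rose and 2 fell, but no fall was called without 0 h replicate 3, 0 h replicate 4 or 3 h replicate 2 and 1 without 3 h replicate 1. Tlr3, the receptor for double-stranded RNA, went from 10.01 and 9.99 to 11.002 and 11.22 (1.11 ± 0.15, adjusted p = 0.00149). Myd88, the adaptor of most other Toll-like receptors, went from 11.91 and 11.98 to 12.76 and 12.69 (0.78 ± 0.10, adjusted p = 0.000868), a call lost with the 4 arrays alone (0.0528).

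Of 16 antimicrobial and metabolic effectors 3 rose and none fell (median 0.39), where 1.86% of all genes rose. Nos2, the inducible nitric oxide synthase, read 6.38 and 6.25 at 0 h, under the dim limit, and 9.57 and 9.48 at 3 h (3.22 ± 0.48, adjusted p = 0.00265). Upp1, uridine phosphorylase, went from 7.07 and 7.67 to 10.74 and 10.88 (3.44 ± 0.27, adjusted p = 2.82e-05). No 0 h array came near the 3 h arrays of either gene. The size of the Nos2 rise is uncertain, since it starts under the dim limit. In naive cells Upp1 changed by 2.45, and the difference of 0.99 between the responses did not pass (adjusted p = 1). Acod1, which makes itaconate, went from 11.48 and 12.14 to 13.44 and 13.50 (1.66 ± 0.28, adjusted p = 0.0057) and lost the call without 0 h replicate 3 or 3 h replicate 2 (adjusted p up to 0.0574). Ch25h, cholesterol 25-hydroxylase, read 7.68 and 10.84 at 0 h and 10.92 and 12.20 at 3 h (2.30 ± 1.08, adjusted p = 0.389), and its 0 h arrays were further apart than the group means.

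Of 19 costimulators, checkpoints and adhesion molecules 6 rose and none fell, with 10 changes above 0 and 9 below (median 0.31). The share of rises among all genes was 1.86%. Cd69, an activation marker, went from 9.08 on both arrays to 11.95 and 12.05 (2.92 ± 0.34, adjusted p = 0.000486). Slamf8, a receptor of the SLAM family, went from 9.004 and 9.24 to 11.87 and 11.58 (2.60 ± 0.30, adjusted p = 0.000486). Cd40, the receptor for T cell help, went from 9.40 and 9.81 to 12.06 and 11.89 (2.37 ± 0.32, adjusted p = 0.00138). For these genes no 3 h array came within 2 log2 units of a 0 h array. Icam1, an integrin ligand, rose by 1.64 ± 0.20 (adjusted p = 0.000688) and Cd86, a ligand of CD28, by 1.54 ± 0.24 (adjusted p = 0.00364). Cd274, the checkpoint ligand PD-L1, went from 11.17 and 9.59 to 13.07 and 12.74 (2.52 ± 0.55, adjusted p = 0.0282). It lost the call without 0 h replicate 4, 3 h replicate 1 or 3 h replicate 2 (adjusted p up to 0.303), in array set 2 alone (0.0945), with all features tested (0.0585) and with trend and robust variances (0.0948). Outside the lists, Sectm1a, a secreted ligand of T cells, went from 7.50 and 8.19 to 11.12 and 11.69 (3.56 ± 0.38, adjusted p = 0.000261). Mmp13, a collagenase, went from 9.18 and 8.84 to 12.16 and 12.23 (3.19 ± 0.25, adjusted p = 3.27e-05), and its naive change was 3.29. These genes were high on both 3 h arrays and on neither 0 h array. Klrk1, the activating receptor NKG2D, read 5.58 and 6.26 at 0 h, under the dim limit, and 9.31 and 9.44 at 3 h (3.45 ± 0.40, adjusted p = 0.000435). Klrk1 is best known from NK and T cells, whose markers were low here. The 4 NK cell markers read 3.89 to 5.99, all under the dim limit on all 4 arrays, with a summed level of 6.60 to 6.83 at 0 h and 6.73 to 6.91 at 3 h, and the 5 T cell markers read 4.89 to 6.86, summed 8.20 to 8.56 and 8.40 to 8.46.

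Sensors and death genes added smaller numbers. Of 19 genes of inflammasomes, the p200 family and cell death 5 rose and none fell (median 0.29), 3 without 0 h replicate 4 or either 3 h array. The share of rises among all genes was 1.86%. Ifi205, a p200 protein, went from 11.27 and 11.09 to 13.06 and 13.10 (1.90 ± 0.16, adjusted p = 6.33e-05). Fas, the death receptor, went from 7.32 and 7.45 to 9.58 and 8.96 (1.89 ± 0.19, adjusted p = 0.000179). Ifi203, of the same family as Ifi205, rose by 1.03 ± 0.12 (adjusted p = 0.000429). In all 3 the 3 h arrays were higher than the 0 h arrays, where 35.4% of all genes had no overlap in 1 direction or the other. Of 5 Fc receptors 2 rose, 1 without 0 h replicate 3 and none without any other array, and of 12 complement genes none was called (5 at an unadjusted p under 0.05), with Cfb, a factor of the alternative pathway, at 0.98 ± 0.26 (adjusted p = 0.0754). Fcgr1, the high-affinity receptor for IgG, read 12.16 and 12.38 at 0 h and 12.82 and 12.84 at 3 h (adjusted p = 0.163). Il4ra, a receptor chain for interleukin-4, was 1 of 2 rises among 18 genes of alternative activation (1 whichever array was left out), from 10.93 and 11.17 to 12.43 and 12.55 (1.44 ± 0.12, adjusted p = 4.67e-05).

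The largest fall was that of a migration receptor. Of 15 migration receptors 4 fell and 1 rose (median 0.06), where 0.998% of all genes fell and 1.86% rose. Without 0 h replicate 4 or 3 h replicate 1 there were 2 falls, and the rise was lost whichever array was left out. S1pr1, which guides exit toward lymph and blood, went from 9.71 and 9.65 to 6.43 and 6.24 (-3.35 ± 0.18, adjusted p = 1.57e-06), under the dim limit at 3 h. Gpr183, the oxysterol receptor, went from 9.25 and 9.59 to 7.53 and 7.45 (-1.93 ± 0.18, adjusted p = 0.000143). No array of one group reached the other in either gene, as in 35.4% of all genes and as the rule for naming the largest falls required. Cx3cr1, the fractalkine receptor, fell by 1.66 ± 0.30 (adjusted p = 0.0104), and lost the call without 0 h replicate 4, 3 h replicate 1 or 3 h replicate 2 (adjusted p up to 0.104) and in array set 2 alone (0.071). Rasgrp3, an exchange factor for Ras, went from 10.74 and 10.47 to 8.71 and 8.06 (-2.22 ± 0.32, adjusted p = 0.00219). Cd300lb, an activating myeloid receptor, went from 11.63 and 11.39 to 9.69 and 9.14 (-2.10 ± 0.32, adjusted p = 0.00292). Smad3, which carries TGF-beta signals, went from 9.38 and 9.76 to 7.74 and 7.80 (-1.80 ± 0.18, adjusted p = 0.000205), and Arhgap22, a GTPase-activating protein for Rac, from 10.22 and 10.28 to 8.55 and 8.23 (-1.86 ± 0.22, adjusted p = 0.00057). Apart from Cx3cr1, these falls were called whichever array was left out. In naive cells the changes were -4.17 for S1pr1, -2.38 for Gpr183, -2.44 for Rasgrp3 and -1.76 for Smad3.

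Immediate early factors and signalling brakes moved singly. Over all genes 1.86% rose and 0.998% fell. Of 23 immediate early factors 1 rose and 1 fell, and of 16 MAPK phosphatases and mRNA decay factors 2 rose and 2 fell. Of these falls none was called without 0 h replicate 3, 0 h replicate 4 or 3 h replicate 2 and 1 without 3 h replicate 1, and the rises were 1 without 0 h replicate 4. The immediate early rise was lost whichever array was left out, and the fall not without 0 h replicate 4 or 3 h replicate 2. Dusp10, a phosphatase of JNK and p38, went from 8.08 and 8.39 to 10.29 and 10.09 (1.95 ± 0.18, adjusted p = 0.000101). Dusp1, a phosphatase of the same kinases, fell from 11.51 and 11.52 to 10.40 and 9.09 (-1.77 ± 0.43, adjusted p = 0.0458). The Dusp1 call was lost without 0 h replicate 3, 0 h replicate 4 or 3 h replicate 2 (adjusted p up to 0.426), in array set 2 alone (0.16), with all features tested (0.0886) and with trend and robust variances (0.0906). Myc read 8.29 and 10.51 at 0 h and 8.10 and 8.41 at 3 h (adjusted p = 0.541), so only the second 0 h array stood apart. None of 11 heat shock proteins and none of 16 genes of cholesterol biosynthesis was called, with medians of -0.21 and -0.32 and 1 and 2 genes at an unadjusted p under 0.05.

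Mitosis, DNA replication and glycolysis showed 1 call at 3 h, and each of these lists had more at 6 h. At 3 h none of 19 mitosis genes was called by limma (0 at an unadjusted p under 0.05), though all 19 changes lay below 0 (median -0.30), and 1 of 18 replication genes fell (median -0.50), a call lost whichever array was left out. Over all 19938 genes 9974 changes at 3 h lay below 0, and 0.998% of genes fell. At 6 h 2.89% of all genes rose. Bub1, a kinase of the spindle checkpoint, read 11.07 and 11.21 at 0 h and 10.66 and 10.60 at 3 h (-0.51 ± 0.26, adjusted p = 0.439). At 6 h, in array set 1, all 19 mitosis genes fell (median -1.72, and 17 to 19 with 1 array left out), against 2.76% of all genes, and Bub1 fell by 2.14. Of the 18 replication genes 3 fell at 6 h (median -0.42), 2 without 0 h replicate 1 or 6 h replicate 1 and 1 without 0 h replicate 2 or 6 h replicate 2. Of 16 genes of glycolysis and hypoxia none was called at 3 h (median -0.11, 1 at an unadjusted p under 0.05), with Hif1a, the hypoxia factor, at 0.65 ± 0.19 (adjusted p = 0.109). At 6 h 8 of the 16 rose (median 0.72), Hif1a among them by 0.97, but without pretreated 6 h replicate 2 none did, and without 0 h replicate 1, 6 h replicate 1 or 0 h replicate 2 the count was 1, 3 or 5. The 2 times lie on different array sets, so time and set cannot be told apart, and the difference was not tested. Over all genes 232 of the 370 rises at 3 h (62.7%) were also among the 576 rises at 6 h (40.3% of those), and 82 of the 199 falls (41.2%) among the 550 falls (14.9%), where 5.65% of all genes changed. These comparisons share no array. A single gene was called in opposite directions, Tcf4, named for that reason after its values were seen, at 0.57 ± 0.10 at 3 h (adjusted p = 0.00887) and -0.39 at 6 h (adjusted p = 0.047). Its 3 h call was lost without 0 h replicate 3, 0 h replicate 4 or 3 h replicate 1 (adjusted p up to 0.0676), in array set 2 alone (0.0517) and with the 4 arrays alone (0.179).

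**Figure D3:**
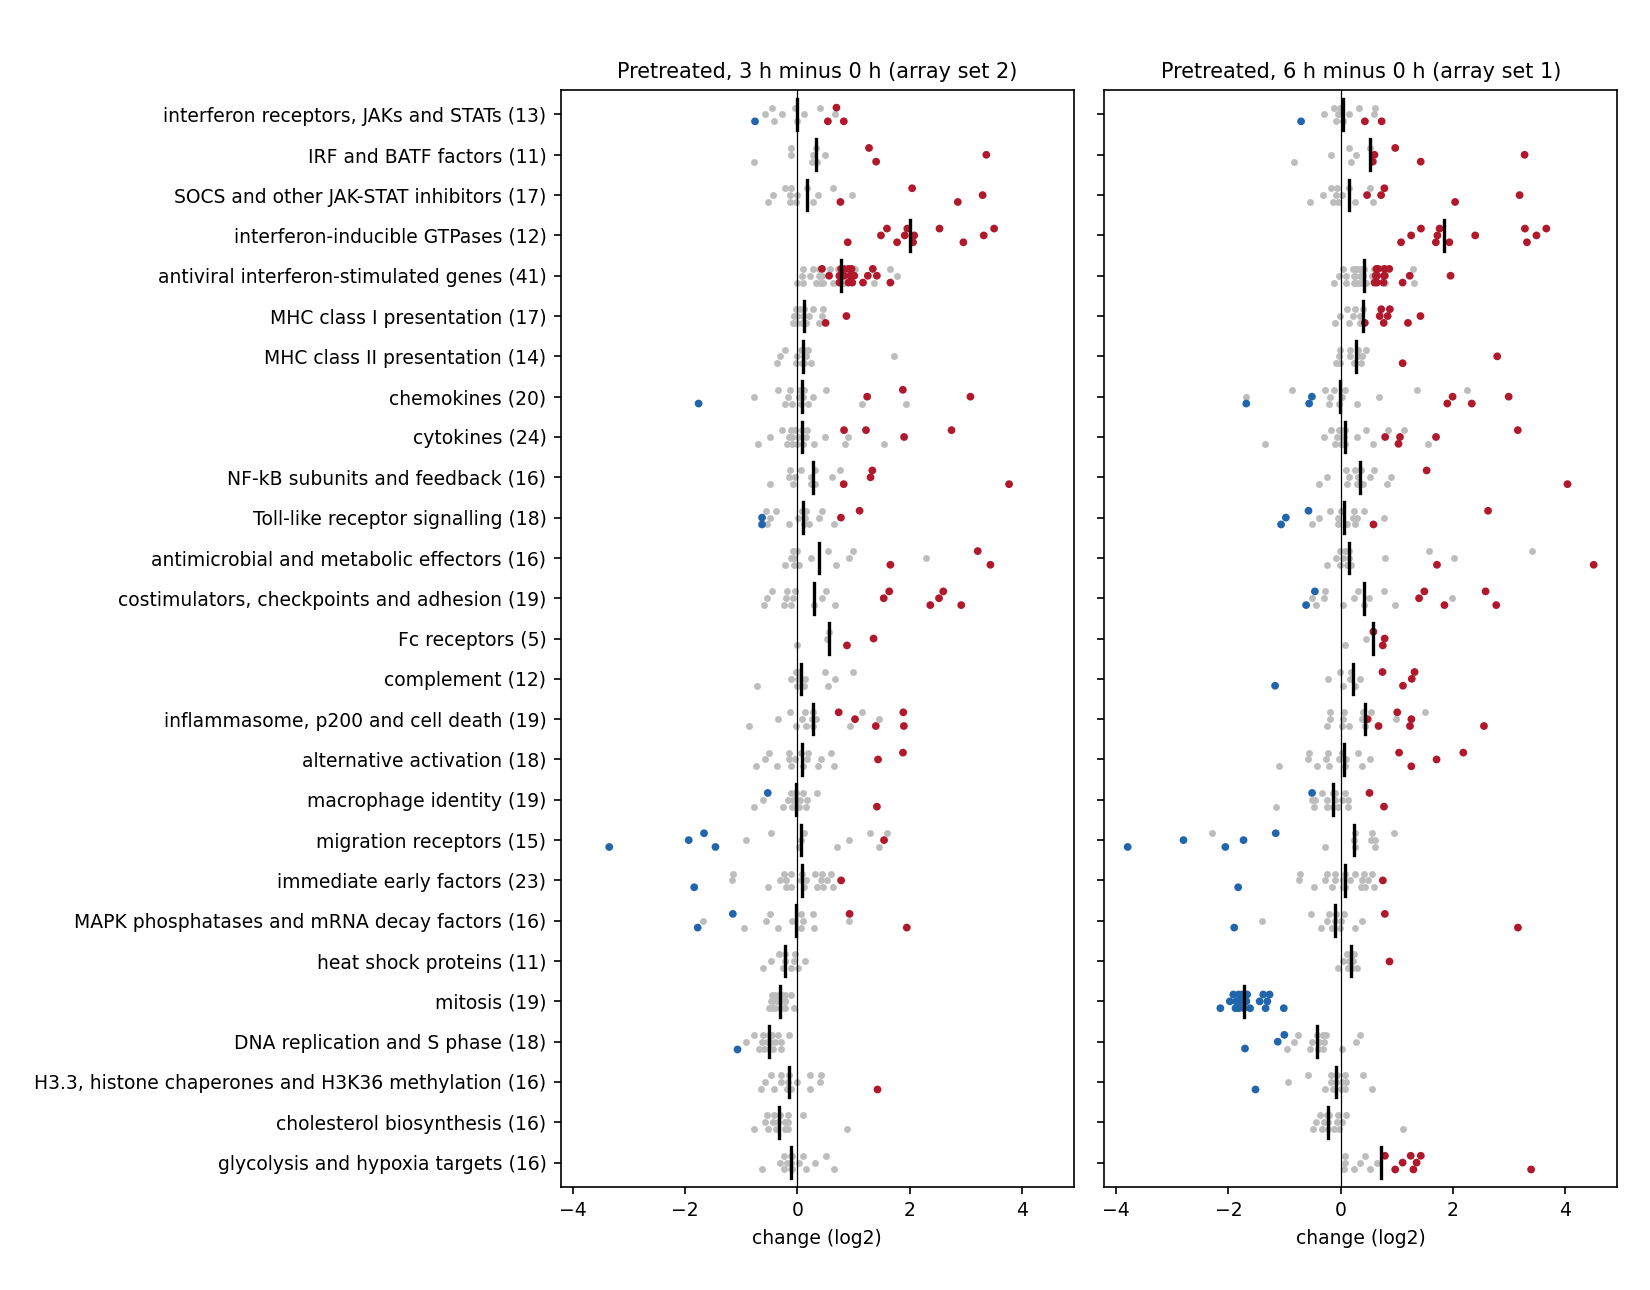
Change of each measured member of 27 gene lists in pretreated cells at 3 h (left) and 6 h (right), in log2, with the number of measured members in parentheses and a black bar at the median. Red and blue points rose and fell past the threshold, grey points did not pass it. The GTPases lie to the right of 0 in both panels, and the 19 mitosis genes fall at 6 h.

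Of 16 genes of H3.3, histone chaperones and H3K36 methylation Daxx alone rose and none fell (median -0.15), where 1.86% of all genes rose. H3f3a, which encodes H3.3, read 6.12 and 6.02 at 0 h and 6.08 and 5.69 at 3 h (-0.19 ± 0.15, adjusted p = 0.654). All 4 values lie under the dim limit, so this feature does not show the level of the gene. Asf1b, a chaperone that hands on H3-H4 pairs, read 12.04 and 12.27 at 0 h and 11.61 and 11.76 at 3 h (adjusted p = 0.226).

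The rises of pretreated cells were largely those of naive cells, which were measured on other arrays of the same set. In naive cells 671 genes rose and 417 fell (3.37% and 2.09%, together 5.46%). Of the 370 pretreated rises 348 (94.1%) were among the naive rises, of which they are 51.9%, and of the 199 pretreated falls 182 (91.5%) were among the naive falls, of which they are 43.6%. All 569 genes had the same sign in naive cells, and none was called in the opposite direction. The naive change was the larger for 292 of the 370 rises and 129 of the 199 falls. Median changes of the same 370 genes were 0.99 in pretreated and 1.33 in naive cells, and of the 199 falls -0.84 and -0.90. The 370 and 199 were chosen on the pretreated arrays, so these shares and medians are descriptions.

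**Figure D4:**
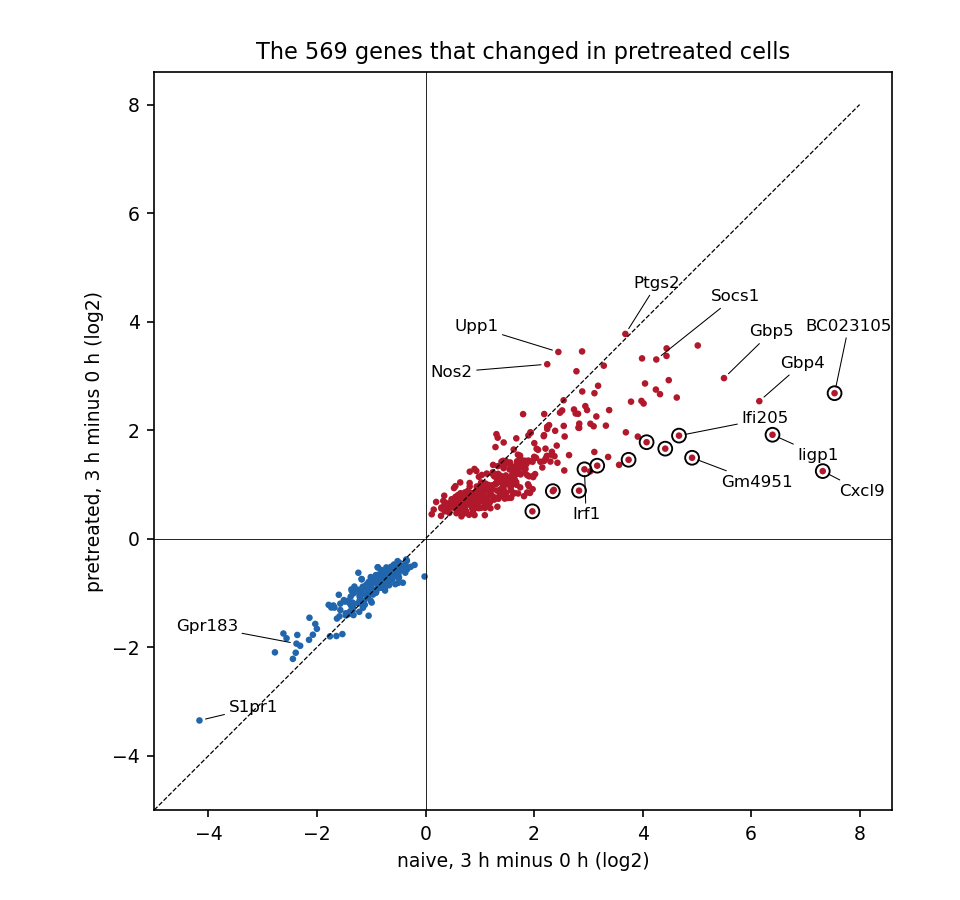
Change from 0 h to 3 h in pretreated cells (vertical axis) against that in naive cells (horizontal axis), in log2, for the 569 genes that changed in pretreated cells, red for rises and blue for falls. The dashed line marks equal changes, and circles mark genes whose difference of changes passed the threshold. Cxcl9 lies at 1.25 and 7.32 (its naive 0 h level is under the dim limit), far below the line, and S1pr1 near it.

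The difference of the changes was tested itself, as the pretreated change minus the naive change over the 8 arrays of set 2. It passed for 16 genes, 0.0802% of all, and all 16 were smaller in pretreated cells. No gene had a larger response in pretreated cells past the threshold. That does not show that none was larger, since the test can miss modest differences. In simulated data it found 43.5% of differences of 1 log2 unit, against 78% for the pretreated change. At an unadjusted limma p under 0.05 the difference passed for 330 of the 19938 genes, of either sign. That share is smaller than the 0.05 that such a limit passes where no gene differs. It therefore cannot show whether further genes differ, and none are read from it. The difference was -6.07 ± 0.24 for Cxcl9 (adjusted p = 1.09e-07), -4.86 ± 0.53 for BC023105 (adjusted p = 0.00281), -4.48 ± 0.38 for Iigp1 and -3.42 ± 0.29 for Gm4951 (adjusted p = 0.00025 for both). Naive cells at 0 h read under the dim limit for Cxcl9 (5.98), BC023105 (3.80) and Iigp1 (6.27), so the sizes of their naive changes are uncertain. The difference was -2.77 ± 0.23 for Ifi205 (adjusted p = 0.00025), -2.61 ± 0.29 for Zbp1, a sensor of Z-form nucleic acids (adjusted p = 0.00312), -2.29 ± 0.22 for Gm12250, an immunity-related GTPase (adjusted p = 0.000795), and -1.47 ± 0.17 for Tap1 (adjusted p = 0.00348). These 8 were called whichever of the 8 arrays was left out. Zbp1 and Tap1 lost it in array set 2 alone (adjusted p = 0.0945 for both), and with an additive array-set term Zbp1 (0.284) and Ifi205 (0.976) lost it, the latter at -1.77. The other 8 were Acod1, Gbp3, the IgG receptor Fcgr4, Ifit2, Irf1, Nlrc5, the peptide loading factor Tapbpl and the immunoproteasome subunit Psmb9, with differences of -2.76 to -1.08. All 8 lost the call when certain single arrays were left out. Irf1 lost it without naive 3 h replicate 2, pretreated 0 h replicate 4 or pretreated 3 h replicate 2 (adjusted p up to 0.0639), and Psmb9 without naive 0 h replicate 4, naive 3 h replicate 1, pretreated 0 h replicate 4 or pretreated 3 h replicate 2 (up to 0.0803). Of the 8 arrays left out in turn, Acod1 kept it only without naive 0 h replicate 4 or pretreated 0 h replicate 3, Fcgr4 and Gbp3 only without naive 0 h replicate 3, Nlrc5 only without naive 0 h replicate 4, Ifit2 only without pretreated 0 h replicate 4 and Tapbpl only without naive 3 h replicate 2, with adjusted p up to 0.310. In array set 2 alone all 8 lost it (0.0652 to 0.444).

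The 16 genes differed in where they started more than in where they ended. At 0 h pretreated cells read higher by 1.25 to 6.13 (median 2.20) in set 2, and at 3 h the difference in level was -0.59 to 0.77 (median 0.18). The responses share these arrays, so the set 2 values are given side by side and not as support. In set 1, whose arrays the responses at 3 h do not share, pretreated cells at 0 h read higher for all 16, by 0.72 to 5.06 (median 1.48). For Cxcl9 the set 1 means were 6.55 in naive and 11.6 in pretreated cells. Over all genes pretreated cells at 0 h in set 2 were higher for 88 genes and lower for 5 (0.441% and 0.0251%, together 0.466%). At 3 h 3 genes (0.015%) differed in level, 2 higher (0.01%) and 1 lower (0.00502%), named after their values were seen because they are so few. Cbr2, a carbonyl reductase, was lower in pretreated cells (-2.45 ± 0.19, adjusted p = 0.000264), with 8.19 and 8.11 against 10.45 and 10.75. Aif1, the macrophage protein Iba1, was higher by 1.48 ± 0.19 (adjusted p = 0.0387) and the class I gene H2-Q5 by 1.05 ± 0.14 (adjusted p = 0.0407). Aif1 and H2-Q5 lost the call without any 1 of the 4 arrays at 3 h (adjusted p up to 0.516 and 0.539), in array set 2 alone (0.0521 and 0.164), with those 4 arrays alone (0.0901 and 0.35) and with all features tested (0.153 for both), and Aif1 with an additive array-set term (0.114).

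**Figure D5:**
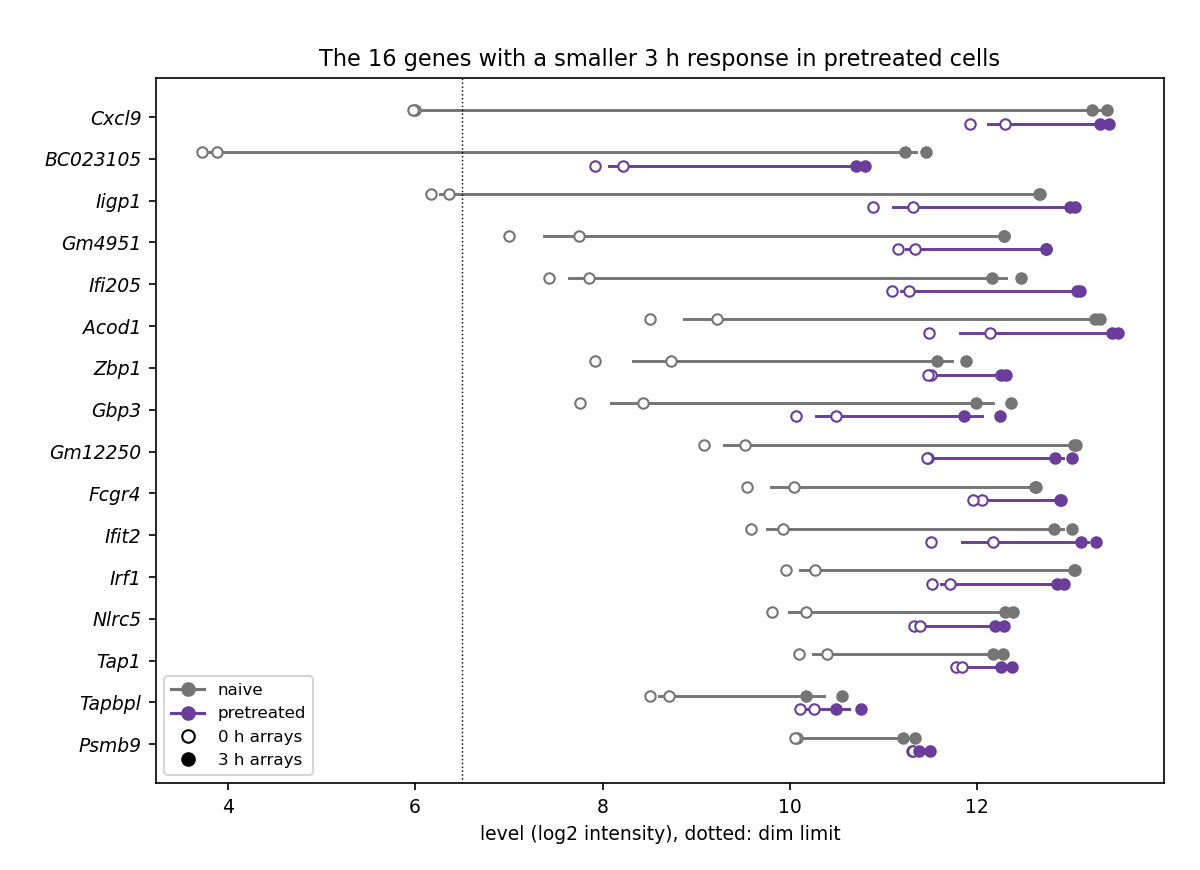
Levels (log2 intensity) of the 16 genes with a smaller 3 h response in pretreated cells, with open circles for 0 h arrays, filled circles for 3 h arrays and lines between the means, naive cells in grey and pretreated cells in purple. The filled circles of both groups lie close together, and the open circles of pretreated cells lie to the right of those of naive cells.

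Within the pretreated groups some genes differed between replicate arrays as much as others changed with time. The 0 h arrays were apart by at least 1 log2 unit for 194 genes and the 3 h arrays for 163, and 85 genes were apart in the same direction at both times when arrays at title positions 2 and 4 were set against those at 6 and 8. None of the 85 was called. H2-Aa, a class II chain named after its values were seen, read 12.15 and 10.78 at 0 h and 12.28 and 10.81 at 3 h, so both first arrays were high. Ifi208, a p200 gene, read 5.49 and 9.48 at 0 h and 6.45 and 11.45 at 3 h (1.46 ± 1.66, adjusted p = 0.77). The test of the 3 h change therefore had a wide error for these genes.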

How the data were processed

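RNA of 16 samples was measured on Affymetrix mouse gene arrays, 1 array per sample. The authors deposited log2 intensities per array feature. How they were background-corrected and normalized is not given in the sources used here, and array medians were 6.886 to 6.997 in set 2 and 7.151 to 7.226 in set 1. Of 35557 features 21789 had 1 gene symbol, 1621 several and 12147 none, and 21698 symbols matched the current gene table. For the 999 genes with several features the one with the highest mean was used, which left 19938 genes. Features with several symbols were not used.

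Limma 3.58.1 in R 4.3.3 fitted group within array set (8 cells, 16 arrays, 8 residual and 4.26 prior degrees of freedom) with no block, and p-values were adjusted by Benjamini-Hochberg. The scripts were tested on simulated data. Tables and figures were made with Python 3.11.15, pandas 2.3.3 and matplotlib 3.10.9. Depth does not apply to arrays, and their number limits the precision. Replicate numbers follow accession order and pair no samples. The members and the 34 gene lists (492 of 551 members measured) were chosen with earlier results of these data known. Genes were named by rule: the 15 largest rises and falls past the threshold without overlap of arrays, the 10 largest differences between responses either way, at most 6 genes per list by size of change, and a short set of interferon genes. All 16 genes whose responses differed past the threshold are named as well, which goes beyond the 10 largest. Of the other genes the text names a subset, and it says where a gene is outside the rule. Alternatives were each array left out, set 2 or the compared arrays alone, an additive set term and a block by title position. Further ones were a 2-fold limit, a filter on dim genes, other handling of features, quantile normalization of the deposited values, and trend and robust variances.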

Additional observations from a re-analysis of the deposited data

Results flagged for a closer look

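In 16 genes the pretreated and the naive response at 3 h differed by limma's test of the difference itself, and all 16 responses were smaller in pretreated cells. In set 2 pretreated cells read higher by 1.25 to 6.13 at 0 h, and by -0.59 to 0.77 at 3 h. Among the calls lost in array set 2 alone were Zbp1 and Tap1 (adjusted p = 0.0945 for both). With an additive array-set term Zbp1 (0.284) and Ifi205 (0.976) were among those lost. The pretreated minus the naive log2 change was -6.07 for Cxcl9, -4.86 for BC023105, -4.48 for Iigp1 and -3.42 for Gm4951. Naive cells at 0 h read under the dim limit for Cxcl9 (5.98), BC023105 (3.8) and Iigp1 (6.27), so the sizes for these genes are uncertain. The difference was -2.77 for Ifi205, -2.76 for Acod1, -2.61 for Zbp1, -2.3 for Gbp3 and -2.29 for Gm12250. It was -1.94 for Fcgr4, -1.82 for Ifit2, -1.65 for Irf1, -1.47 for Nlrc5 and Tap1, -1.32 for Tapbpl and -1.08 for Psmb9. Of these, Cxcl9, BC023105, Iigp1, Gm4951, Ifi205, Zbp1, Gm12250 and Tap1 were called whichever of the 8 arrays was left out.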

How the results depend on the processing

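The count of 569 genes that changed in pretreated cells at 3 h was 250 with a 2-fold limit, 923 with an additive array-set term and 219 to 429 with 1 array left out. Of these, the 370 rises became 182 with the 2-fold limit and 178 to 255 with 1 array left out, and the 199 falls became 68, 37 to 174, 116 with only the compared arrays and 409 with the additive term. The naive count of 1088 was 487 with the 2-fold limit, 584 with only the compared arrays and 543 to 716 with 1 array left out. The pretreated 6 h count of 1126 was 466, 741 and 486 to 861 under the same settings. The 16 differences of responses were 8 in set 2 alone, 10 with the additive term, 26 with all features tested and 8 to 14 with 1 array left out. The 93 genes that differed at 0 h were 44 with only the compared arrays, 230 with the additive term and 61 to 75 with 1 array left out. The 3 that differed at 3 h were 1 with only the compared arrays, 1 with all features and 1 to 2 with 1 array left out. The cause of these shifts was not tested. H2-Aa ranged from -0.657 to 0.816 with 1 array left out (-0.61 without pretreated 0 h replicate 4), H3f3a from -0.384 to 0.011 and Ifi208 from -1.039 to 3.96 (-0.532 without 0 h replicate 3), so none of these 3 has a direction.

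The labels do not pair the arrays. With title positions 1 to 4 and 5 to 8 as a replicate block, 1272 genes changed in pretreated cells at 3 h (622 rises and 650 falls), and they held all 569. The block gave 1925 for the naive and 1895 for the 6 h response, 31 differences of responses, and 238 and 76 genes that differed at 0 h and at 3 h. Deviations of same-position arrays from their group means correlated across genes at 0.082 between pretreated 0 h and 3 h, at 0.387 to 0.644 for the other 5 pairs of groups in set 2 and at 0.152 to 0.662 for the 6 pairs in set 1, so arrays at like positions deviated together in most pairs of groups. Of 1841 single-gene values under these settings 1540 kept their direction and side of the threshold, 268 lost the call, 28 gained it and 5 changed sign.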
